A study of Mus musculus with 4 samples.

Results

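Ccnd1 encodes cyclin D1 and Ccne1 encodes cyclin E1, and they are the genes described here, 2 of the 3624 genes in the deposited count table. They were taken by symbol, together with the library, the genotype and a marker-defined state of each cell. Both lie on the minus strand of chromosome 7 of GRCm38 (mm10) and are protein-coding in the GENCODE annotation. Ccnd1 (ENSMUSG00000070348.5) spans 144929931 to 144939925 and Ccne1 (ENSMUSG00000002068.16) spans 38097984 to 38107534.

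Transcripts were counted in 9960 single cells of mouse fetal liver at E14.5 (day of embryonic life) with droplet libraries of the 10x Genomics Chromium kind. The cells had been sorted as Lin-Sca-cKit+Cd34+ progenitors from C57Bl/6J embryos, that is, for the stem cell factor receptor Kit and for CD34 and against lineage markers and Sca1. The 2 wild-type samples gave libraries F and I, and 2 samples with a deleted -77 enhancer of Gata2 gave libraries A and B. Gata2 encodes a transcription factor of blood progenitors, and the labels name no other allele or agent for either group.

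D-type cyclins bind the kinases Cdk4 and Cdk6 in G1, the phase before DNA replication, and are made in response to growth signals. Their complexes phosphorylate the retinoblastoma protein, which releases E2F factors, and E2F factors in turn activate Ccne1. Cyclin E binds Cdk2 and drives entry into S phase, after which it is degraded. Blood progenitors express several D-type cyclins, and Ccnd3 has a known role in the last divisions of erythroid cells.

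The libraries held 1938 to 3042 cells and 16837863 to 40117680 UMIs (unique molecular identifiers, each standing for 1 captured transcript). The median number of UMIs per cell was 12826.5 and 17437.5 in the wild-type libraries F and I, against 7492 and 7087 in the enhancer-deleted libraries A and B. Levels are given as CPM, the UMIs of a gene per 1000000 UMIs of the panel. Gata2 stood at 26.3 and 23.2 CPM in the wild type and at 7.48 and 6.73 CPM in the enhancer-deleted libraries. Kit stood at 39.6 to 45.2 CPM and Cd34 at 186 to 333 CPM over the 4 libraries, and the Sca1 gene Ly6a was not in the panel. Xist was present in libraries I and B and near 0 in F and A, so each genotype held 1 library of each kind. Clusters of cells with few UMIs held 4.64% and 1.60% of the wild-type cells and 15.2% and 11.9% of the enhancer-deleted cells.

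Over all cells, Ccnd1 was higher in the enhancer-deleted libraries and Ccne1 did not pass the test. Ccnd1 gave 1749 UMIs in library F and 1495 in library I, or 43.6 and 44.1 CPM, and 1161 in library A and 1712 in library B, or 69.0 and 85.9 CPM. Both enhancer-deleted libraries thus stood above both wild-type ones, and library B stood above library A by more than the wild-type libraries differed. In the edgeR fit, Ccnd1 rose by a log2 fold change of 0.77 (SE 0.09, adjusted p = 0.00980, n = 2 per genotype). Of all genes tested, 8.86% passed the threshold of 0.05 in either direction and 2.76% passed it as higher in the enhancer-deleted libraries, while 35.5% had both enhancer-deleted libraries above both wild-type ones.

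Ccne1 gave 24.3 CPM in library F, 30.5 in library I, 28.9 in library A and 33.9 in library B, from 487 to 1034 UMIs per library. The genotypes overlapped, since library I stood above library A. The fitted log2 fold change was 0.15 (SE 0.13, adjusted p = 0.535 in edgeR). A p above the threshold does not show that Ccne1 was equal in the genotypes.

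Cells were grouped into 17 clusters without the 2 cyclins and without the genes of the cell cycle lists, so that neither gene took part in defining a cluster. Clusters 1 and 6 were HSPC/multipotent-like (HSPC stands for hematopoietic stem and progenitor cell), led by genes such as Mycn, Socs2 and Hoxa9 or Hlf and Flt3. Clusters 2 and 9 were monocyte/macrophage-like, with Ccr2, Trem2 and Lgals3 leading cluster 2 and Ly6c2, Klf4 and F13a1 leading cluster 9. Clusters 13 and 14 were neutrophil-like (Camp and S100a8, or Elane and Cebpe), cluster 10 was basophil/mast-like (Cpa3, Hdc), and cluster 11 was erythroid-like (globin genes). Prg3, an eosinophil gene, also led cluster 14. The remaining clusters stay unnamed, among them cluster 4 (Fh1, Irf8, Ms4a6b), cluster 5 (Sox4, Cd27, Hmga2), cluster 7 (Ebf1, Mzb1) and cluster 16, which mixed erythroid, megakaryocyte and mast cell markers (Car1, Gata1, Ms4a2).

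Within the wild type, Ccnd1 differed between clusters over a wide range. Its mean level was highest in cluster 7, at 97.2 CPM in library F and 123.6 CPM in library I, from 51 and 36 cells. Next came clusters 4, 8, 2, 1, 6, 3 and 5, whose means ran from 88.1 down to 66.4 CPM, and each of them overlapped its neighbour in that order. Below them, without overlap, stood the monocyte/macrophage-like cluster 9 at 31.1 and 25.4 CPM. The order of these levels goes by the mean and is a description of 2 libraries. In library F alone, cluster 2 stood above cluster 7, at 99.7 against 97.2 CPM.

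Cluster 16 and the basophil/mast-like, neutrophil-like and erythroid-like cells had the lowest Ccnd1 levels, in that order. Cluster 16 had 19.2 and 18.5 CPM in libraries F and I, and the basophil/mast-like cells had 18.4 and 15.99 CPM. The neutrophil-like clusters overlapped each other, cluster 14 at 6.76 and 3.60 CPM and cluster 13 at 3.61 and 3.07 CPM. The erythroid-like cells held 1 Ccnd1 UMI in library F and 0 in library I, or 1.77 and 0 CPM. A separate endothelial-like cluster of 7 cells, too small for a comparison, held 12 Ccnd1 UMIs in its 6 cells of library F, or 443 CPM.

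Ccne1 was spread differently. The erythroid-like cells, lowest for Ccnd1, had the highest Ccne1 level, at 115 CPM in library F and 149 CPM in library I, from 65 and 58 UMIs. Cluster 4 followed at 43.5 and 45.1 CPM and overlapped neither the erythroid-like cells nor the next cluster. Clusters 9 and 8 came next with means of 34.7 and 34.6 CPM, and overlapped each other, and clusters 2, 3, 1, 5 and 7 followed with means from 28.9 to 21.7 CPM. Cluster 8 did not overlap cluster 2, while cluster 9, at 27.7 and 41.7 CPM, did. The lowest means belonged to cluster 6 at 18.3 CPM, cluster 16 at 17.5 CPM, the basophil/mast-like cells at 16.8 CPM and the neutrophil-like clusters 14 and 13 at 15.5 and 14.99 CPM, each overlapping its neighbour.

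**Figure D1:**
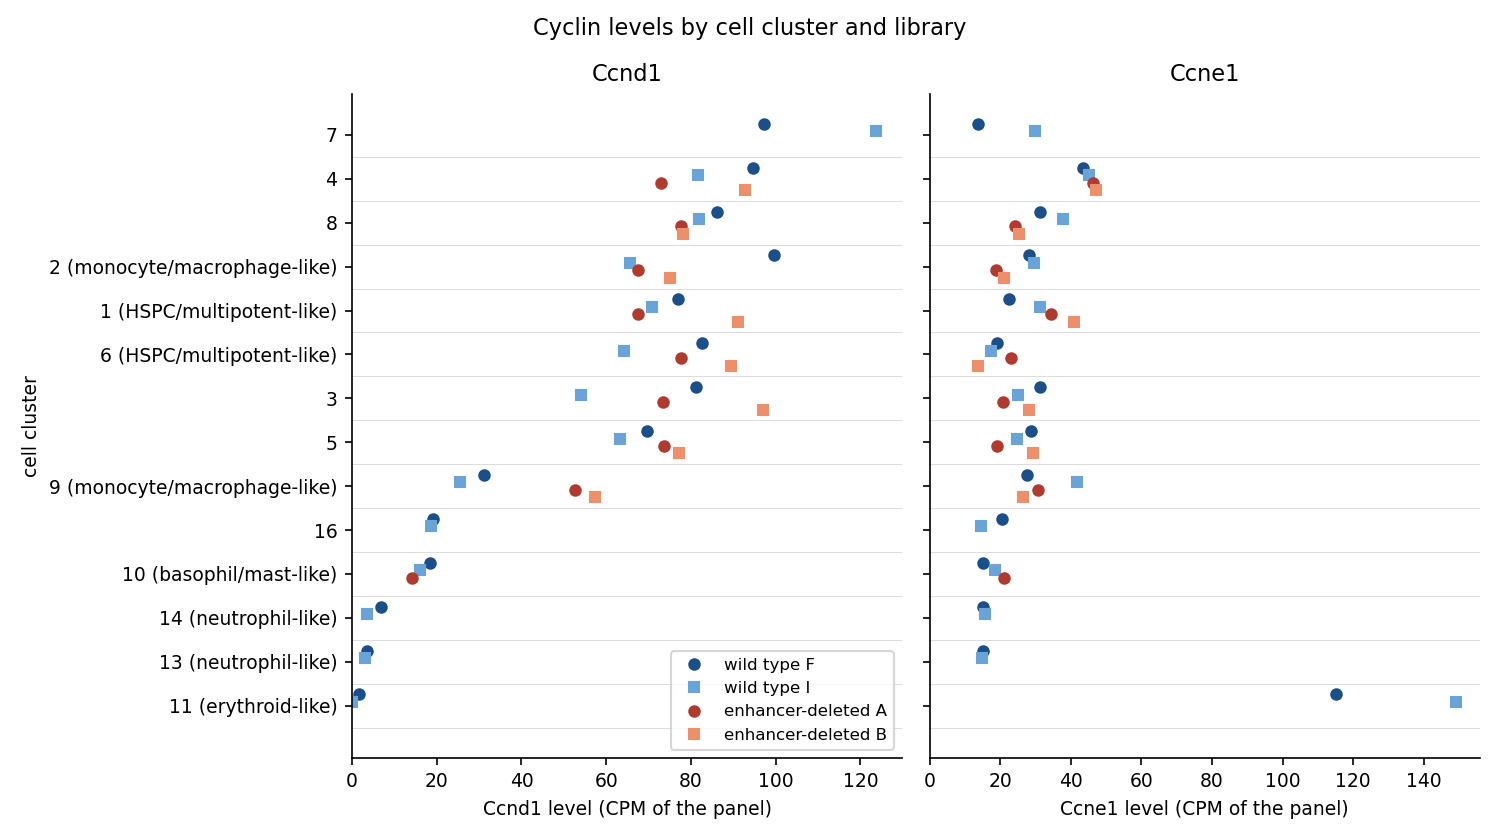
Level of Ccnd1 (left) and Ccne1 (right) in CPM of the panel, for each cell cluster (rows, ordered by the wild-type mean of Ccnd1) and library (points; blue wild type, red enhancer-deleted; libraries with under 30 cells of a cluster are left out). Ccnd1 falls from 97.2 and 123.6 CPM in cluster 7 to 1.77 and 0 CPM in the erythroid-like cluster 11, where Ccne1 is highest at 115 and 149 CPM.

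In the enhancer-deleted libraries, the 9 clusters with at least 50 cells in both libraries had means of Ccnd1 from 91.8 CPM in cluster 0, a cluster of few UMIs per cell, to 54.9 CPM in cluster 9. Cluster 9 was the lowest of these 9, at 52.6 CPM in library A and 57.2 CPM in library B, and did not overlap the next cluster up. The clusters that stood below cluster 9 in the wild type had too few enhancer-deleted cells to be among the 9. Cluster 4 was the highest of the 9 for Ccne1, at 46.3 and 47.1 CPM. The lowest Ccne1 mean there was 18.5 CPM in cluster 6.

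The clusters lowest for Ccnd1 in the wild type were rare in the enhancer-deleted libraries. Neutrophil-like, erythroid-like and basophil/mast-like cells and cluster 16 together held 47.9% and 34.9% of the cells of libraries F and I, against 3.71% and 1.28% in libraries A and B. As a share of UMIs, they made up 45.5% and 31.5% in the wild type and 4.23% and 1.19% in the enhancer-deleted libraries. Over the same libraries, 12 of the 14 measured neutrophil markers and 13 of the 15 measured erythroid markers passed the edgeR test as lower in the enhancer-deleted libraries, and 0 as higher, where 6.1% of all genes tested passed as lower. The summed level of the neutrophil list was 17471 and 12932 CPM in the wild type and 5749 and 5575 CPM in the enhancer-deleted libraries.

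Over the cells outside those 4 states, the genotypes overlapped in Ccnd1. The level there was 71.7 CPM in library F, 60.4 in library I, 71.3 in library A and 86.7 in library B, with means of 66.0 ± 8.01 and 79.0 ± 10.9 CPM (SD, n = 2 each). The ratio of the means was 1.20, against 1.77 over all cells. These 4 states were chosen after their Ccnd1 levels were seen. Ccne1 had a ratio of 0.995 over the same cells.

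A fixed weight for each state gave a similar picture for Ccnd1. Over the 6 states with at least 50 cells in every library, each weighted by its mean share of UMIs, Ccnd1 stood at 73.6 CPM in library F, 60.0 in library I, 70.0 in library A and 83.4 in library B. The ratio of enhancer-deleted to wild type was 1.15 (two-sided exact permutation p = 0.667, where 2 against 2 libraries cannot go below 0.333). When the wild-type levels in 13 states were weighted by the UMI shares of the enhancer-deleted libraries, Ccnd1 came to 73.4 CPM in library F and 62.8 CPM in library I. With the same weights over single clusters, it came to 79.3 and 67.2 CPM, and the ratio was 1.06. For Ccne1 the ratio over the 6 states was 0.943, again with overlap between the genotypes.

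**Figure D2:**
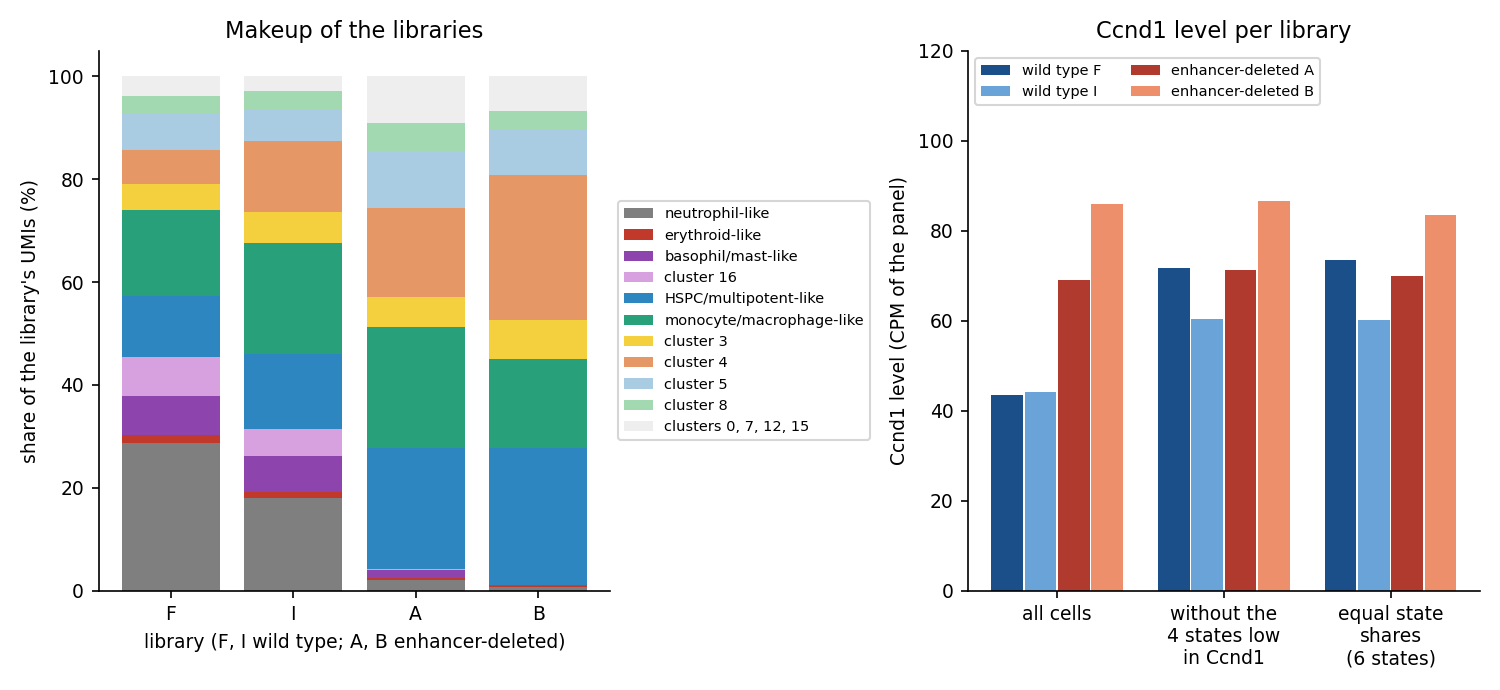
Left, share of each library's UMIs (%) taken by each cell state. Right, Ccnd1 level per library in CPM over all cells, outside the neutrophil-like, erythroid-like, basophil/mast-like and cluster 16 states, and at state shares equal across libraries. In the last case, each of 6 states is weighted by its mean share of UMIs. The bars of the genotypes separate over all cells only (43.6 and 44.1 against 69.0 and 85.9 CPM).

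Within HSPC/multipotent-like cells, neither cyclin passed the test. Ccnd1 stood at 78.9 CPM in library F, 68.7 in library I, 70.6 in library A and 90.5 in library B, and the genotypes overlapped (log2 fold change 0.073, SE 0.12, adjusted p = 0.772). The sign turned without library I (-0.030) or without library B (-0.077). Ccne1 stood at 21.4 and 26.8 CPM in the wild type and 31.0 and 32.7 CPM in the enhancer-deleted libraries, without overlap, with a log2 fold change of 0.34 (SE 0.16, adjusted p = 0.350). In these cells 0.561% of the genes tested passed, and 47.5% did not overlap between the genotypes.

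The 2 HSPC/multipotent-like clusters were also fitted apart. In cluster 1, Ccne1 stood at 22.6, 31.4, 34.4 and 40.9 CPM in libraries F, I, A and B (log2 fold change 0.45, SE 0.19, adjusted p = 0.322 in edgeR), and 0.762% of genes passed. In cluster 6, it stood at 19.1, 17.5, 23.2 and 13.8 CPM, with overlap (-0.11, adjusted p = 0.988), and 0.512% of genes passed. Ccnd1 overlapped between the genotypes in both clusters, with log2 fold changes of 0.076 in cluster 1 and 0.11 in cluster 6. The interaction of genotype and cluster passed for neither Ccnd1 (0.0098, adjusted p = 1.00) nor Ccne1 (-0.61, SE 0.39, adjusted p = 1.00).

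In monocyte/macrophage-like cells, the 2 cyclins had opposite signs and neither passed. Ccnd1 stood at 49.6 CPM in library F and 32.0 in library I, against 63.2 in library A and 69.3 in library B (log2 fold change 0.76, SE 0.20, adjusted p = 0.0621). Ccne1 stood at 27.8 and 39.6 CPM in the wild type and at 22.3 and 22.7 CPM in the enhancer-deleted libraries (log2 fold change -0.53, SE 0.20, adjusted p = 0.142). For both genes the genotypes did not overlap, and 7.98% of the genes tested passed in these cells, where 59.7% did not overlap. Ccnd1 passed with library totals, with the DESeq2 Wald test, with a term for Xist and without library F, and Ccne1 passed with the Xist term and without library F. With the cyclins and cell cycle genes kept in the clustering, the log2 fold changes were 0.36 for Ccnd1 and -0.17 for Ccne1, and with coarser clusters they were 0.45 and -0.20, with adjusted p from 0.330 to 0.796.

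The 2 clusters of this class were unequally filled, with cluster 9 holding 526 wild-type and 237 enhancer-deleted cells and cluster 2 holding 199 and 789. They also differed in Ccnd1. In cluster 9, Ccnd1 stood at 31.1 and 25.4 CPM in the wild type and 52.6 and 57.2 CPM in the enhancer-deleted libraries, a log2 fold change of 0.98 (SE 0.19, adjusted p = 0.0878, edgeR). In cluster 2, it stood at 99.7 CPM in library F and 65.6 in library I, against 67.5 in library A and 75.0 in library B, with a log2 fold change of -0.23 (SE 0.17, adjusted p = 0.505). The genotypes did not overlap in cluster 9, where 36.6% of genes did not, and overlapped in cluster 2. The share of genes past the threshold was 0.113% in cluster 9 and 1.75% in cluster 2.

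The difference between those 2 effects was tested directly. The genotype effect on Ccnd1 was larger in cluster 9 than in cluster 2 by 1.14 on the log2 scale (SE 0.21, adjusted p = 0.00927 for the interaction in edgeR), and 0.646% of the genes tested passed this interaction. The interaction lost its call without library A (adjusted p = 0.388) or without library B (adjusted p = 0.227), while its size stayed between 0.97 and 1.26. Ccne1 showed log2 fold changes of -0.28 in cluster 9 and -0.51 in cluster 2, and its interaction did not pass (0.26, SE 0.31, adjusted p = 0.822).

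Clusters 3, 4, 5 and 8 gave no call for either cyclin. Ccnd1 stood at 81.2, 54.0, 73.4 and 96.9 CPM in libraries F, I, A and B in cluster 3, and at 94.6, 81.6, 72.9 and 92.8 CPM in cluster 4. In cluster 5 it stood at 69.6, 63.2, 73.7 and 77.2 CPM, and in cluster 8 at 86.1, 82.0, 77.5 and 78.2 CPM. The genotypes overlapped in clusters 3 and 4, the enhancer-deleted libraries were higher in cluster 5, and they were lower in cluster 8, without overlap in either, as for 42.6% and 38.5% of genes in these 2 clusters. The log2 fold changes of Ccnd1 in clusters 3, 4, 5 and 8 were 0.30, -0.063, 0.14 and -0.11, with adjusted p from 0.652 to 0.894 in edgeR. Those of Ccne1 were -0.22, 0.066, -0.20 and -0.48, with adjusted p from 0.617 to 0.855. In cluster 4, the sign for Ccnd1 turned without library F (0.060) or library A (0.050), and in cluster 5 the sign for Ccne1 turned without library A (0.050). The shares of genes past the threshold in clusters 3, 4, 5 and 8 were 0.0565%, 0%, 1.33% and 0.629%. In cluster 4, 354 genes had an unadjusted p under 0.05 in edgeR, and DESeq2 called 8.

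**Figure D3:**
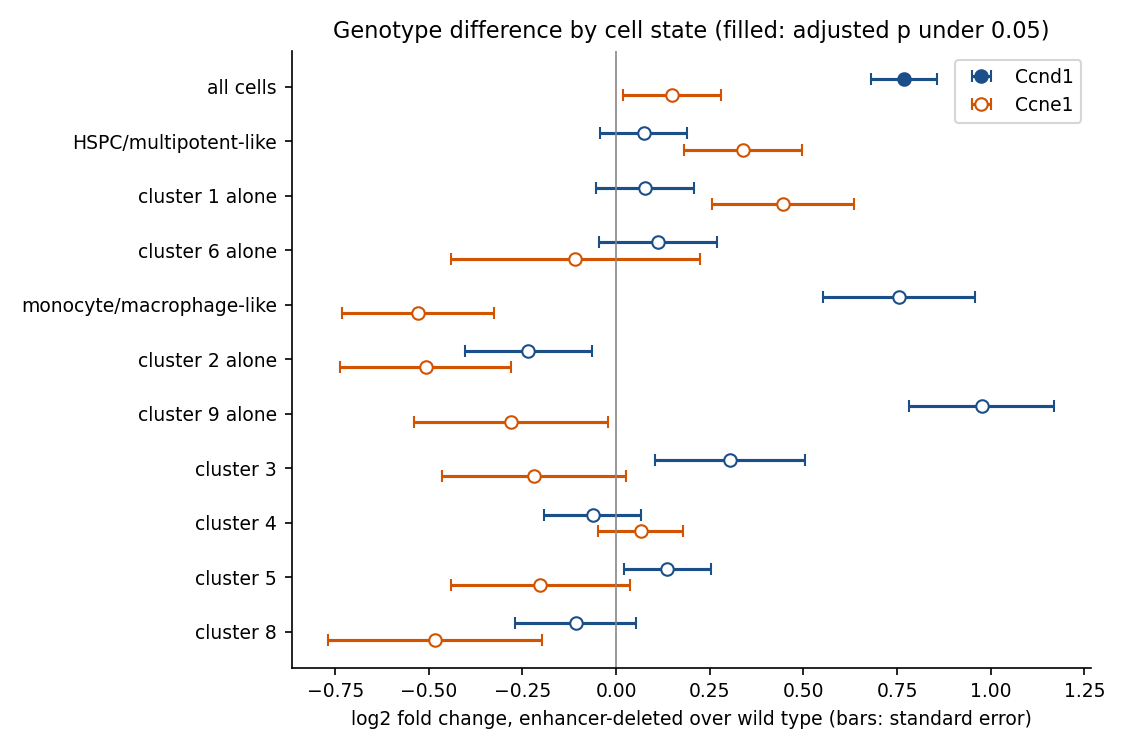
log2 fold change of Ccnd1 (dark blue) and Ccne1 (orange), enhancer-deleted over wild type, over all cells, in the 6 tested states and in single clusters of the named classes, with the standard error as bars. The only filled point, an adjusted p under 0.05, is Ccnd1 over all cells at 0.77.

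In all, 34 interactions were tested, over 17 pairs of states or clusters and both genes, with p adjusted over the genes of each pair, and 7 passed. Between states, the monocyte/macrophage-like cells stood apart from the HSPC/multipotent-like cells in both cyclins. The genotype effect was higher there by 0.70 for Ccnd1 (SE 0.14, adjusted p = 9.44e-05) and lower by -0.86 for Ccne1 (SE 0.20, adjusted p = 0.000719). This interaction was passed by 29.9% of the genes tested, so a call in it is common. The monocyte/macrophage-like effect on Ccnd1 also passed against cluster 4 (0.88, where 18.7% of genes passed), cluster 5 (0.58, 11.7%) and cluster 8 (0.84, 9.49%), and that on Ccne1 against cluster 4 (-0.63). The Ccnd1 calls against clusters 5 and 8 and the Ccne1 call against cluster 4 were lost without library I, A or B, with adjusted p up to 0.260, 0.135 and 0.365. The class effect combines clusters 9 and 2, whose shares differed by genotype, and how far that makeup enters these interactions was not tested.

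Few enhancer-deleted cells fell into the neutrophil-like state, where Ccnd1 was almost absent in the wild type. The 1304 wild-type cells held 86 Ccnd1 UMIs, or 5.63 CPM in library F and 3.43 in library I. The 70 enhancer-deleted cells held 10, at 19.2 and 20.5 CPM in libraries A and B from 7 and 3 UMIs. With under 50 cells in each enhancer-deleted library, this was not tested. Ccne1 stood at 15.1 and 15.5 CPM in the wild-type neutrophil-like cells and at 16.4 and 27.3 CPM in the enhancer-deleted ones, from 6 and 4 UMIs.

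The share of cells with at least 1 UMI was compared at equal depth, after each cell was thinned to 4346 UMIs. Shallower cells, 140 of the wild type and 855 of the enhancer-deleted libraries, were left out by the thinning. A Ccnd1 UMI was then found in 14.7% of cells in library F (Wilson 95% interval 13.5% to 16.03%), 14.4% in library I (12.9% to 16.1%), 22.6% in library A (20.8% to 24.6%) and 29.6% in library B (27.8% to 31.5%). The intervals cover counting error only. The genotypes did not overlap, and the two-sided exact permutation p was 0.333, the smallest that 2 against 2 allows. These shares pool the cell states. By state, the genotypes overlapped in HSPC/multipotent-like cells (27.4% and 23.7% against 23.5% and 30.5%) and in clusters 3, 4 and 5. They did not overlap in monocyte/macrophage-like cells (17.6% and 13.6% against 19.0% and 24.1%) or in cluster 8 (25% and 21.7% against 25.3% and 27.3%). Within the monocyte/macrophage-like class, however, the genotypes overlapped in each cluster taken alone. Cluster 9 gave 10.4% and 11.985% against 11.1% and 19.3%, and cluster 2 gave 31.6% and 20% against 21.6% and 25.8%. Wild-type cells of the class lay mostly in cluster 9 and enhancer-deleted ones mostly in cluster 2. How far that makeup enters the class shares was not tested. Over all cells, a Ccne1 UMI was found in 9.04% of cells in library F, in 210 of 1909 cells in library I, in 10.8% in library A and in 13.02% in library B. Here the genotypes overlapped, with library I above library A. Thinning to the median depth of 9777 UMIs instead kept 2197 and 1682 cells of libraries F and I, against 554 and 548 of libraries A and B. Among these deeper cells, Ccne1 was found in 19.2% and 21.6% of the wild type and 24.0% and 24.6% of the enhancer-deleted libraries. The genotypes did not overlap there (exact permutation p = 0.333). The share of all genes that separate by detection was not counted at either depth.

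Without thinning, the order changed for Ccne1. Its share was then 22.8% and 31.8% in the deeper wild-type libraries and 17.6% and 19.5% in the enhancer-deleted ones. For Ccnd1 the unthinned shares were 30.05%, 37.8%, 35.3% and 41.9% in libraries F, I, A and B, and the genotypes overlapped. Erythroid-like cells, which had almost no Ccnd1 UMIs in any library, give a level for stray transcripts at equal depth in the wild type: 0 of 85 cells, which allows a share of up to 3.53%. These cells had a median of 10660 UMIs before thinning and are the state lowest for Ccnd1. The enhancer-deleted libraries held 0 of 6 such cells, too few to give a background for their shares. In wild-type neutrophil-like cells (median 13116.5 UMIs), 12 of 1270 cells held a Ccnd1 UMI, or 0.945%, and in wild-type HSPC/multipotent-like cells (median 12551.5 UMIs) 187 of 728 did, or 25.7%.

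Cells with both cyclins made up 1.71% and 2.25% of the thinned wild-type cells and 2.61% and 4.28% of the enhancer-deleted ones. Among cells with a Ccnd1 UMI, 11.6%, 15.6%, 11.5% and 14.48% also held a Ccne1 UMI in libraries F, I, A and B. Among cells without one, 8.60%, 10.2%, 10.6% and 12.4% did. The share was higher beside Ccnd1 in all 4 libraries, which pool all cell states.

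**Figure D4:**
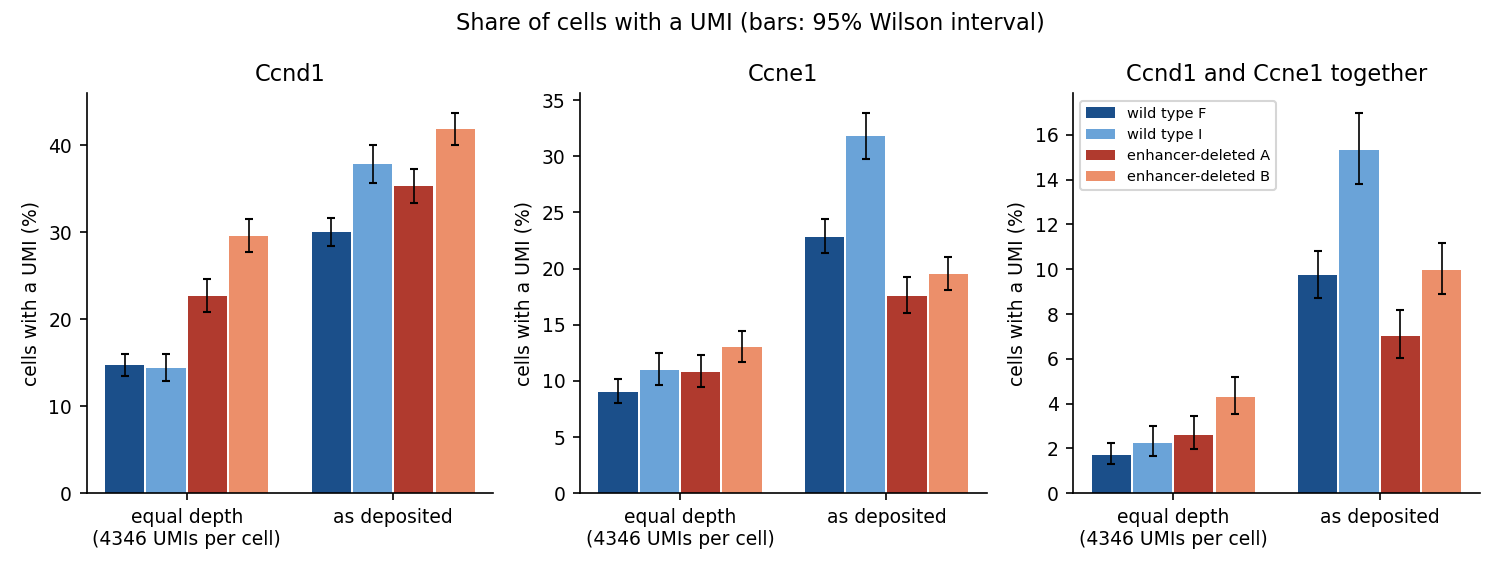
Share of cells (%) with at least 1 UMI of Ccnd1, of Ccne1 and of both, per library, at an equal depth of 4346 UMIs per cell and as deposited, with Wilson 95% intervals as bars. Over all cells, Ccnd1 separates the genotypes at equal depth only (14.7% and 14.4% against 22.6% and 29.6%), and Ccne1 turns its order without thinning.

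The levels of both cyclins were then compared by position in the cell cycle, at equal depth. Thinned cells were placed in a G2/M range when their UMIs of 40 G2/M genes reached the median of 32, otherwise in an S range when their UMIs of 32 S genes reached the median of 15, and otherwise in a low range. Neither cyclin was in these lists. The ranges are cuts in a continuous score, and 1888 and 1703 of the 8965 cells lay within 10% of the G2/M and the S median. Ccne1 stood at 35.0, 42.3, 41.8 and 44.5 CPM in the S range of libraries F, I, A and B, at 23.8, 25.6, 34.1 and 29.0 CPM in the low range, and at 15.1, 21.3, 16.6 and 26.6 CPM in the G2/M range. In every library the S range was highest and the G2/M range lowest.

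For Ccnd1 over all cells, with the states pooled, the low range was the lowest of the 3 in every library. Ccnd1 stood there at 31.2, 34.6, 53.2 and 82.9 CPM in libraries F, I, A and B. The S range gave 48.6, 41.5, 68.4 and 84.5 CPM and the G2/M range gave 44.0, 41.3, 67.3 and 90.2 CPM. Both enhancer-deleted libraries stood above both wild-type ones in each range. Without ranges, 35.5% of all genes tested did so, and the share within a range was not counted. These values pool the cell states, and in library F 230 of the 523 low-range cells were neutrophil-like, at 1.00 CPM of Ccnd1. Within monocyte/macrophage-like cells, Ccnd1 overlapped between the genotypes in all 3 ranges. Over all cells, the shares of cells in the ranges overlapped between the genotypes, with 46.9% and 53.2% of wild-type cells and 51.4% and 54.9% of enhancer-deleted cells in the G2/M range.

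Within HSPC/multipotent-like cells, Ccne1 was again highest in the S range, at 35.2, 50.3, 53.3 and 40.5 CPM in libraries F, I, A and B. In their G2/M range it stood at 8.07 and 7.19 CPM in the wild type, from 6 and 5 UMIs, and at 16.3 and 20.1 CPM in the enhancer-deleted libraries, from 15 and 29 UMIs. In the G2/M range of monocyte/macrophage-like cells, Ccne1 went the other way, at 22.4 and 38.7 CPM in the wild type, from 24 and 37 UMIs. The enhancer-deleted libraries there gave 8.35 and 16.5 CPM, from 9 and 17 UMIs. All these counts are small, and neither difference was tested. The share of all genes that separate in these ranges was not counted. Ccnd1 in the S and G2/M ranges of the same cells overlapped between the genotypes. In monocyte/macrophage-like cells, Ccne1 was highest in the S range in libraries F, I and A. In library B it was highest in the low range, at 40.3 CPM from 7 UMIs against 30.5 CPM in the S range. In neutrophil-like cells, the S range was highest in libraries F, I and B, and the G2/M range in library A, from 2 UMIs.

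**Figure D5:**
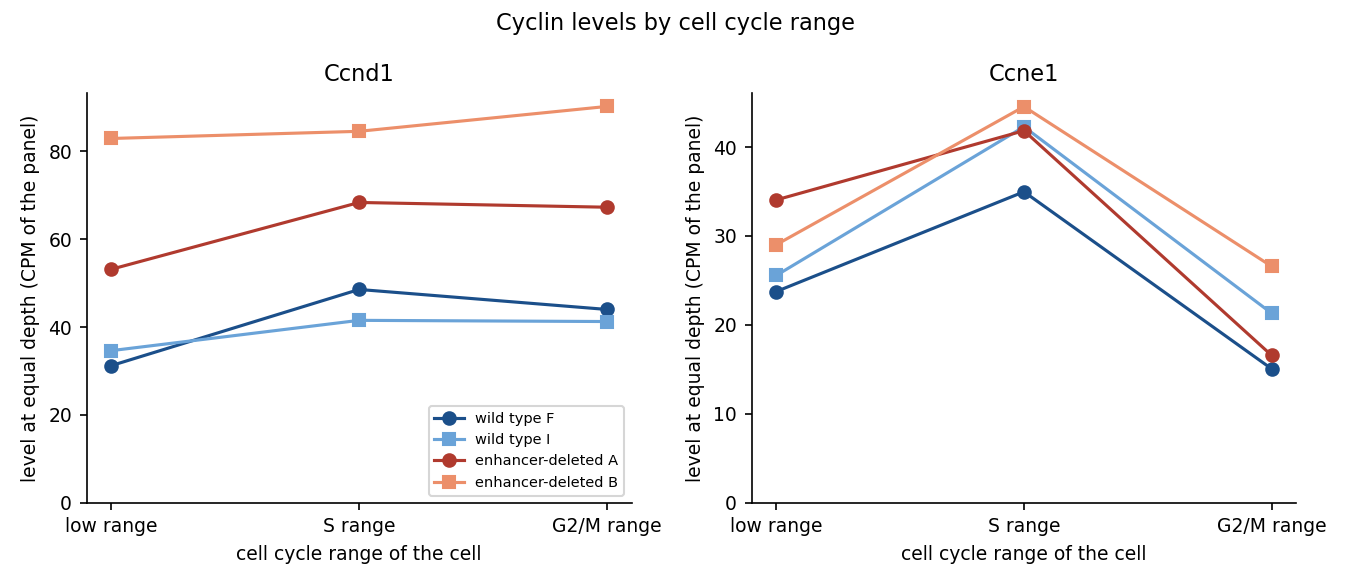
Level of Ccnd1 (left) and Ccne1 (right) in CPM at equal depth, in the low, S and G2/M ranges of the cell cycle lists, per library (lines). All cell states are pooled. Ccne1 peaks in the S range of every library (35.0 to 44.5 CPM), while the Ccnd1 lines of the genotypes stay apart in all 3 ranges.

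The other D-type cyclins were measured too, and the E-type cyclin Ccne2 was not in the panel. Ccnd2 rose with Ccnd1 over all cells, from 131 and 128 CPM to 190 and 219 CPM (log2 fold change 0.61, SE 0.08, adjusted p = 0.0122 in edgeR). It also rose in monocyte/macrophage-like cells (0.84, adjusted p = 0.0212), in cluster 9 alone (0.86, adjusted p = 0.0382) and in cluster 5 (0.55, adjusted p = 0.0323). Outside the 4 states low in Ccnd1, Ccnd2 stood at 154 and 141 CPM in the wild type and 193 and 220 CPM in the enhancer-deleted libraries. Ccnd3 had a log2 fold change of -0.12 over all cells (adjusted p = 0.354).

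Ccnd1 made up a larger part of the D-type cyclin UMIs in the enhancer-deleted libraries, at 17.4% and 18.6% against 13.2% and 13.6%. In HSPC/multipotent-like cells that part was 17.9% and 16.2% in the wild type and 14.99% and 17.2% in the enhancer-deleted libraries, with overlap. In cluster 9 it was 11.4% and 9.89% against 18.8% and 18.2%, without overlap. In cluster 2 of the same class it was 20.6% and 15.6% against 18.7% and 18.8%, with overlap. Cluster 5 went the other way without overlap, at 17.9% in both wild-type libraries against 16.4% and 16.2% in the enhancer-deleted ones. By level, 36.6% of genes did not overlap in cluster 9 and 42.6% in cluster 5, and these parts were not tested. Ccnd1 made up 2.61% and 1.74% in wild-type neutrophil-like cells and 0.370% and 0% in wild-type erythroid-like cells, so most D-type cyclin UMIs there came from Ccnd2 and Ccnd3.

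Of 23 measured genes of the G1 pathway besides the 2 cyclins, 1 (Ccnd2) rose and 0 fell over all cells in edgeR, where 6 had an unadjusted p under 0.05, and DESeq2 called 6. Over all genes tested, 2.76% rose in edgeR and DESeq2 called 734 of 3624, so the share of 1 in 23 is near the background. Their median log2 fold change was -0.0098, against 0.00068 for all genes tested. The kinase genes Cdk4 and Cdk6, whose products are the partners of cyclin D, had log2 fold changes of 0.12 (adjusted p = 0.338, edgeR) and -0.11 (adjusted p = 0.387). The inhibitor genes Cdkn1a (p21) and Cdkn2d (p19) had 0.13 (adjusted p = 0.667) and -0.29 (adjusted p = 0.0830). Of the 32 S genes and the 40 G2/M genes, 0 passed in either direction in edgeR, where 1 and 9 of them had an unadjusted p under 0.05, and DESeq2 called 0 and 8. Of all genes tested, 8.86% passed in edgeR, and the DESeq2 share is the one given above.

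Over 35 sums of library and state, which share libraries and their depth, the gene most like Ccnd1 among 3478 was Prr5 (Pearson r = 0.93), followed by Bmyc, Ifitm3, Ifi203 and Mef2c (0.92, 0.92, 0.92 and 0.91). Outside the 4 states low in Ccnd1, these values were 0.63, 0.53, 0.030, 0.32 and 0.50 over 28 sums. Genes most like Ccne1 included Tipin (0.82), a gene of the S list, then Mthfd2, Acp1 and Zcrb1 (0.80, 0.78 and 0.78). Without the single erythroid-like sum, these genes gave 0.71, 0.77, 0.64 and 0.69. Ccnd1 and Ccne1 correlated at 0.059 over all sums and at 0.59 without the erythroid-like sum, so that value rests on 1 sum, and outside the 4 states it was 0.0039. These correlations are descriptions of the sums.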

How the data were processed

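The authors deposited UMI counts of 3624 genes in 9960 cells, 4980 per genotype, as a table without a header, and its columns were matched by position to the deposited list of genotypes and libraries. Cell Ranger 2.0.2, Seurat 2.3.4 and mm10 are named per the submitters' processing notes, and how genes and cells were chosen is not given in the sources used here. Cells were clustered in scanpy 1.11.5 (1000 variable genes, 30 components, 15 neighbours, resolution 1.0), and no doublet caller was run. A cluster was named when at least 3 markers of a type were 2-fold over other cells, no other type had more markers or a larger share of its markers up, its type led the 10 top genes, and its UMIs per cell were not far under the library's median. UMIs were summed per library and state (at least 50 cells in each library) and tested with edgeR 4.0.16 (quasi-likelihood, TMM, filterByExpr, Benjamini-Hochberg threshold 0.05). Interactions carried a term for the library. DESeq2 1.42.0 was an alternative. The test scripts were tested on simulated data. Cells were thinned to the 10th percentile of depth (4346 UMIs). The named genes were the cyclins, their pathway lists and the 5 genes most like each cyclin among genes of at least 20 CPM, of which 1 is not reported here. The members and lists were chosen with earlier results of these data known. No promoter or protein sequence was used here.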

Additional observations from a re-analysis of the deposited data

Results flagged for a closer look

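Of the 34 interactions tested, 7 showed a genotype effect that differed between 2 cell states by the test of that difference in edgeR. In monocyte/macrophage-like cells the effect on Ccnd1 exceeded that in HSPC/multipotent-like cells by 0.70, that in cluster 4 by 0.88, that in cluster 5 by 0.58 and that in cluster 8 by 0.84 on the log2 scale. For Ccne1 the effect in monocyte/macrophage-like cells minus that in HSPC/multipotent-like cells was -0.86, and minus that in cluster 4 it was -0.63. Inside the class, the effect on Ccnd1 in cluster 9 exceeded that in cluster 2 by 1.14. Wild-type cells of this class lay mostly in cluster 9 and enhancer-deleted ones mostly in cluster 2. The interaction of the class with HSPC/multipotent-like cells was passed by 29.9% of the genes tested. With clusters 4, 5 and 8 the shares were 18.7%, 11.7% and 9.49%, and between clusters 9 and 2 the share was 0.646%. The Ccnd1 calls against clusters 5 and 8 and between clusters 9 and 2, and the Ccne1 call against cluster 4, were lost in some alternatives.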

How the results depend on the processing

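Of 183 alternatives to the 21 results with a test, 158 kept the direction and the side of the threshold, 12 lost the call, 6 gained one and 7 turned the sign. Ccnd1 over all cells kept its call in all 12 alternatives, with log2 fold changes from 0.64 to 0.88 and adjusted p from 8.09e-13 to 0.0391. Those of Ccne1 ran from 0.018 to 0.28, with adjusted p from 0.256 to 0.955. Leaving out 1 library gave -0.077 to 0.20 for Ccnd1 in HSPC/multipotent-like cells, -0.24 to 0.060 for Ccnd1 in cluster 4, -0.51 to 0.050 for Ccne1 in cluster 5, 0.46 to 1.14 for Ccnd1 and -0.72 to -0.26 for Ccne1 in monocyte/macrophage-like cells. There, Ccnd1 passed with library totals (0.70), the DESeq2 Wald test (0.75) and a term for Xist (0.77), Ccne1 passed with the Xist term (-0.51), and cluster 2 alone gave -0.23 for Ccnd1. Cluster 6 alone gave -0.11 for Ccne1. Among the interactions of the monocyte/macrophage-like cells, leaving out 1 library gave -0.81 to -0.35 for Ccne1 against cluster 4, and 0.37 to 0.89 and 0.60 to 1.16 for Ccnd1 against clusters 5 and 8. The Ccnd1 interaction with cluster 5 missed the threshold with library totals (0.51), and that of cluster 9 with cluster 2 ranged from 0.97 to 1.26. The cause of these changes was not tested. Where an arm keeps 1 library, edgeR takes it to vary like the other arm. Over all cells 321 genes passed, against 734 with the DESeq2 Wald test and 66 to 291 without 1 library (66 without A, 112 without B). Counts ranged over 9 to 187 (main 20) in HSPC/multipotent-like cells, 0 to 15 (2) in cluster 3, 0 to 165 (0) in cluster 4, 8 to 175 (47) in cluster 5, 3 to 48 (22) in cluster 8 and 0 to 792 (285) in monocyte/macrophage-like cells. The standardised ratio of Ccne1 came to 1.00 with wild-type levels at the enhancer-deleted UMI shares of single clusters. Without thinning, the ratios of detection were 1.14 for Ccnd1, 0.679 for Ccne1 and 0.679 for both, against 1.79, 1.19 and 1.74 at equal depth, where the wild-type libraries were deeper. Single clusters, weights by single clusters, cells without the 5% with most UMIs or without low-UMI clusters, the level outside the 4 states and all alternatives of the interactions were chosen after seeing the data. No paired analysis was possible because the library letters carry no replicate numbers. The term for Xist sets F beside A and I beside B by that transcript alone, and changed the calls of both cyclins in monocyte/macrophage-like cells as given above. With 2 libraries per genotype and 10 UMIs of each cyclin in enhancer-deleted neutrophil-like cells, the depth limits what can be said of the rare states.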
